A study of Mus musculus with 8 samples.

Results

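H3 target sites 3, 4, 5 and 8 are 4 of the 26 sequenced sites, each 20 bases long, at which mouse embryos were examined for changes made by base editing. They were chosen by their measured base shares, which were nearly equal among the 4 in every library, so their likeness is how they were selected and is not a result. They are treated here as 1 pooled profile, the mean of the 4 sites in each library. Genomic DNA came from C57BL/6 embryos 19.5 days after microinjection. In 4 libraries the labelled genotype is wild type at H3R17 and Carm1. In the other 4, called edited here, it is H3R17H/Carm1-/-, that is, histidine for arginine 17 of histone H3 together with loss of Carm1. The labels do not say what was injected, whether wild-type embryos were injected too, or whether 1 library is 1 embryo, so each p-value refers to the variation among libraries, which may be technical.

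Histone H3 is wrapped by DNA in every nucleosome, and its tail carries residues that enzymes modify. Carm1 is an arginine methyltransferase known to methylate arginine 17 of that tail, and the histidine of H3R17H cannot be methylated in that way. The mouse genome holds many nearly identical replication-dependent H3 genes: the RefSeq table for GRCm38.p6 names 9 on chromosome 13 and 3 on chromosome 3. A cytosine base editor is a Cas9 protein unable to cut both strands, joined to a deaminase that turns cytosine into uracil within a short stretch of the guide-matched strand. The uracil is read as thymine, and its repair is known to leave adenine or guanine in some molecules.

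The site is shown first as deposited and then with each change described below, on the guide-matched strand. Positions are counted from 1 at its 5′ end, a substitution gives the reference base first, and capitals mark the cytosines at positions 1, 5, 7 and 13 in the first line and the changed base in the others.
Sites 3, 4, 5 and 8: CttgCgCggggcCttgccgc
C5T: cttgTgcggggccttgccgc
C5A: cttgAgcggggccttgccgc
C5G: cttgGgcggggccttgccgc
C7T: cttgcgTggggccttgccgc
C7A: cttgcgAggggccttgccgc
C1T: Tttgcgcggggccttgccgc
C13T: cttgcgcggggcTttgccgc
G4A and G19A: cttAcgcggggccttgccAc
T15A: cttgcgcggggcctAgccgc
Site 9, which differs by G10A: cttgcgcggAgccttgccgc
H3 is encoded on the opposite strand, shown here with the codon of arginine 17 in capitals: gcggcaaggccccgCGCaag
It holds whole codons for residues 13 to 18. Taken alone, C5T gives histidine at residue 17, C5A leucine and C5G proline. Every change at position 7 keeps proline 16, C1T keeps lysine 18 and C13T keeps lysine 14, while C1A and C1G give asparagine at residue 18. G4A keeps arginine 17, and T15A turns the codon of lysine 14 into a stop. Sites 1, 2, 6 and 7 have the same 20 bases. Which H3 gene each numbered site stands for, and where it lies in the genome, was not analysed here.

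Median depth per member ran from 31232.5 to 61545 reads, and within a library the 4 members differed little in depth, from 31232.5 to 31867 in wild-type replicate 1, for example. Summed over the members, a position held 121340 to 247223 reads. For the named shares of these summed reads the 95% Wilson half-width was at most 0.241 percentage points, and 3 reads correspond to 0.00121 to 0.00247%. Shares of a single site have wider intervals, such as 48.7 to 49.6% for C5T at site 8 in edited replicate 4. These limits cover counting error only, because PCR reads without molecular identifiers are not independent molecules and because the way reads were divided among identical H3 copies is not given. The 4 members may therefore hold reads of the same molecules.

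The base whose change gives H3R17H was converted to thymine in 36.9 to 56.8% of reads in the edited libraries and in at most 0.0344% in wild type. Edited replicates 1 to 4 had C5T in 36.9%, 44.1%, 56.8% and 48.8% of their reads. In wild-type replicates 1 to 4 it was found in 0.0344%, 0.0295%, 0.0302% and 0.0206%. All 4 edited libraries therefore lay far above all 4 wild-type libraries, with means of 46.6% ± 8.32 (SD, n = 4) and 0.0287% ± 0.00579 (SD, n = 4). The difference of 46.6 percentage points was larger than the SD of either group. Full separation of the groups gives a two-sided exact permutation p = 0.0286, the lowest value possible for 4 against 4. The sites were grouped by these same base shares, so that p-value is a description and cannot test the difference. The edited libraries themselves differed beyond counting error, since the Wilson intervals of replicates 1 and 3 were 36.7 to 37.2% and 56.5 to 57.0%.

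Thymine was not the sole product at position 5, and the mixture differed from library to library. The changes to T, A and G at position 5 were also counted together. Edited replicates 1 to 4 then had the cytosine changed in 37.4%, 51.8%, 59.3% and 48.8% of reads. The mean was 49.3% ± 9.10 against 0.0355% ± 0.00535 in wild type (SD, n = 4 each, exact permutation p = 0.0286). This p-value is likewise a description. Arginine's codon base thus remained in 62.6%, 48.2%, 40.7% and 51.2% of edited reads. Thymine made up 98.7%, 85.1%, 95.7% and 99.9% of the changed reads in replicates 1 to 4. The lowest of these, replicate 2, held most of the leucine-coding C5A, whose shares in replicates 1 to 4 were 0.470%, 7.69%, 0.337% and 0.0197%. Wild-type libraries had C5A in 0.00124 to 0.00638% of reads, below each edited library. The proline-coding C5G was almost confined to edited replicate 3, at 2.24%, with 0.00396%, 0.00528% and 0.0132% in replicates 1, 2 and 4 and 0.00160 to 0.00427% in wild type.

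The second cytosine of the stretch, at position 7, was changed less often and with a different product in different libraries. In edited replicates 1 to 4 it was changed in 8.52%, 3.50%, 2.28% and 33.1% of reads, against 0.0169 to 0.0283% in wild type. Edited replicates 1 to 4 had C7T in 0.107%, 3.49%, 2.26% and 13.6% of their reads, and wild-type libraries in 0.0105 to 0.0216%. The C7A shares were 8.41%, 0.0105%, 0.00175% and 19.5% in the same order, and 0.00242 to 0.00716% in wild type. Adenine was thus the main product at position 7 in edited replicates 1 and 4, at 98.7% and 58.9% of the changed reads, and thymine in replicates 2 and 3, at 99.5% of the changed reads in each. C7A in edited replicate 3 lay below the wild-type range, but it rested on 3 of 170231 reads, against 3 of 124290 in wild-type replicate 1. C7G stayed at or below 0.0106% in all 8 libraries, at 0.00494 to 0.0106% in edited and 0.00143 to 0.00402% in wild-type libraries. Since each product at position 7 leaves proline in place, these changes do not alter the encoded H3 residue on their own.

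Changes at the outer cytosines each belonged to a single edited library. At position 1, C1T reached 1.86% in edited replicate 3 and at most 0.0117% in the other 7 libraries. C1A and C1G reached 1.07% and 0.508% in edited replicate 1, against at most 0.00355% and 0.00459% in the other 7 libraries. At position 13, C13T reached 2.14% in edited replicate 1 and at most 0.00888% elsewhere, while C13A and C13G stayed at or below 0.0106% in all libraries. The cytosines at positions 12, 17, 18 and 20 held no product above 0.104% in any edited library. That highest value was C17T, which also stood at 0.0728 to 0.0817% in wild type. Positions 1, 5, 7 and 13 were picked with these values known, so only position 5, which the genotype names, was given a single-value permutation p. Even there the p-values are descriptions, because the sites were grouped by these base shares. The limma values printed below for named products and for G4A come from a fit over the whole table. For these picked substitutions they are descriptions.

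Each edited library thus had its own set of cytosine products at or above 1% of reads. Edited replicate 1 held C1A, C5T, C7A and C13T. Replicate 2 held C5A, C5T and C7T, replicate 3 held C1T, C5G, C5T and C7T, and replicate 4 held C5T, C7A and C7T. Of the 24 possible cytosine products, C5T alone reached 1% in all 4 edited libraries, and none did in any wild-type library. Just below that threshold lay T15A at 0.549% in edited replicate 2, discussed with site 8, and C1G at 0.508%.

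Across the whole table of 1380 substitutions, with sites 3, 4, 5 and 8 entered once, limma called 10 at a Benjamini-Hochberg adjusted p under 0.05 (0.725%), of which 8 were higher in edited libraries (0.580%). Of the 60 substitutions of the pooled profile it called 1, C5T, with a log2 odds difference of 11.58 (SE 0.28, limma adjusted p = 3.0e-07). An unadjusted limma p under 0.05 was found for 8 of these 60 and for 96 of the 1380 over the whole table. C7T and C5A were not called, with log2 odds differences of 7.06 (SE 1.35, limma adjusted p = 0.104) and 6.68 (SE 1.63, limma adjusted p = 0.208), and neither was C7A, at 5.86 (SE 3.02, limma adjusted p = 0.806). Without edited replicate 1 the count at the pooled profile was 2, with C7T added, and 15 over the whole table. Without edited replicate 4 it was 3, with C5A and the lower G11T added, and 18 over the whole table.

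G4A and G19A were present in the same 5 libraries, of both groups. G4A was found in 0.0142%, 19.8%, 19.7% and 21.5% of reads in wild-type replicates 1 to 4, and in 18.8%, 0.108%, 20.1% and 0.0305% in edited replicates 1 to 4. G19A was found in 0.0213%, 19.8%, 19.7% and 21.4% of reads in the wild-type libraries, and in 18.7%, 0.110%, 20.04% and 0.0420% in the edited ones. So 3 wild-type and 2 edited libraries carried both changes at 18.7 to 21.5%, and the other 3 libraries carried neither above 0.110%. The 2 shares differed by at most 0.105 points in any library, and their Wilson intervals overlapped in each. No per-read values were used, so whether both changes sit on the same reads was not examined. The groups overlap, and the edited minus wild-type difference of -5.48 points for G4A (limma adjusted p = 0.956) turns on how many libraries of each group carry the change. C5T was 36.9% and 56.8% in the 2 edited libraries with both changes and 44.1% and 48.8% in the 2 without them. At H3 sites 1, 2, 6, 7 and 9, G4A was found in 0.492 to 1.93% of reads of the same 5 libraries and in at most 0.0359% in the other 3. G19A was found there in 0.778 to 2.67% of reads of those 5 libraries. At sites 6, 7 and 9 the shares of G4A and G19A were less equal than in the pooled profile. At site 6 in edited replicate 1 they were 1.93% and 2.67%, and at site 7 in wild-type replicate 2 they were 0.668% and 1.29%. In edited replicate 1 they were 1.20% and 1.45% at site 9, and 1.11% and 0.962% at site 2. At site 1 the 2 shares were closer in points than at sites 6, 7 and 9. They were 1.23% and 1.22% there in wild-type replicate 2 and 1.09% and 0.987% in edited replicate 3.

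A second change shared by both groups was G10A, the base by which site 9 differs. It was found in 6.24%, 4.91%, 4.74% and 4.05% of pooled reads in wild-type replicates 1 to 4 and in 5.57%, 5.69%, 4.75% and 3.99% in edited replicates 1 to 4. These groups overlap, and their means differed by 0.0160 points against an SD of 0.917 in wild type. Unlike G4A, it was present at a like level in every library.

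Site 8 followed sites 3, 4 and 5 closely except in edited replicate 2 and, more weakly, wild-type replicate 4. Of 480 shares compared (60 substitutions in 8 libraries), 3 lay outside the range of the other members by at least 0.5 points, and no such departure was found for site 3, 4 or 5. In edited replicate 2 T15A was found in 2.15% of site 8 reads (1034 of 47982, 95% Wilson interval 2.03 to 2.29%), against 0.0105%, 0.0213% and 0.00851% at sites 3, 4 and 5. In that library G10A was lower at site 8, at 4.15% (Wilson interval 3.98 to 4.33%) against 6.09%, 6.44% and 6.08%. The third departure was G19A in wild-type replicate 4, at 20.9% (Wilson interval 20.5 to 21.3%) against 21.5 to 21.7%. Wilson intervals of sites 3, 4 and 5 alone were not computed, so whether this gap exceeds counting error was not tested. G4A at site 8 in that library, at 21.1% (Wilson interval 20.6 to 21.5%) against 21.5 to 21.7%, fell just short of the 0.5 points. T15A in edited replicate 2 was also found in 0.986% of reads at site 6 and 0.498% at site 7, and in at most 0.0697% at sites 1, 2 and 9. Read depth at site 8 also differed from the other members in that library. Relative to the wild-type profile, its depth over positions 10 to 13 averaged 0.990 and over positions 16 to 18 averaged 1.01, while sites 3, 4 and 5 had 1.01 over the first stretch and 0.989 to 0.990 over the second. Site 8 also differed in depth in other libraries. Its average over positions 10 to 13 was 1.007 in edited replicate 3, against 1.001 to 1.003 at the other members. In edited replicate 1 it was 0.997 against 0.993. Single positions in that stretch differed more. The lowest in edited replicate 3 was 1.006 at site 8 and 0.986 to 0.989 at the other members. The highest in edited replicate 1 was 1.006 against 0.995 to 0.996. At positions 5 and 7 site 8 lay inside the range of the other members or within 0.5 points of its nearer end. C5T at site 8 was 44.2% in edited replicate 2 against 43.9 to 44.2%, and in edited replicate 4 it was the highest of the members, at 49.2% against 48.6 to 48.7%. C7T in edited replicate 4 was 13.9% against 13.4 to 13.6%. Site 8 was singled out for these values, so they carry no test.

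Read depth, which played no part in choosing the sites, was lower at the target base in every edited library than in any wild-type library. The comparison was added after its values were seen, so its p-values are descriptions. With each library's depth set against its mean over the 20 positions and against wild type, position 5 of the pooled profile stood at 0.960, 0.944, 0.936 and 0.862 in edited replicates 1 to 4. Wild-type replicates 1 to 4 stood at 0.998, 1.003, 0.999 and 0.999. The edited mean was 0.926 ± 0.0438 (SD, n = 4), below every wild-type library (exact permutation p = 0.0286, adjusted p = 0.355 over 460 positions). Such separation downwards was found at 20 of those 460 positions (4.35%). In the pooled profile it was found at position 5 only, 1 of its 20 positions, which is close to that share. Positions 4, 19 and 20 of the pooled profile were separated upwards, with edited means of 1.013, 1.013 and 1.012 and the same unadjusted and adjusted p. Upward separations over the 460 positions were not counted, so these positions have no background share beside them. At sites 1 and 7 every edited library was likewise below every wild-type library at position 5, with edited means of 0.929 and 0.923, while at site 6 the mean was 0.943 and the groups overlapped. With 4 libraries against 4, an adjusted value could pass only if most of the 460 positions reached the smallest p. Position 7 stood at 0.995, 1.001, 0.992 and 0.968 in edited replicates 1 to 4. The shares given above are of reads with a base call, so they leave out whatever reads lack one at these positions, and the part of missing calls in the shares was not tested.

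The pooled profile was also set against H3 sites 1, 6 and 7, which have the same 20 bases. Its C5T share ran from 36.9 to 56.8% over the edited libraries, and that of site 1 from 28.9 to 51.8%. In edited replicates 1 to 4 site 1 had 42.9%, 28.9%, 51.8% and 48.2%, against 36.9%, 44.1%, 56.8% and 48.8% in the pooled profile. The ranges were wider at site 6, from 5.18 to 93.9%, and at site 7, from 2.27 to 96.5%. Averaged, those 3 sites had 39.7%, 39.96%, 65.0% and 48.1% C5T in the edited libraries, in replicate order. The pooled share minus that average was -1.56 points in the mean, at -2.81, 4.13, -8.22 and 0.656 points by library (exact two-sided sign-flip permutation p = 0.75, where the smallest p possible is 0.13). With that smallest p the test could not pass whatever the difference, and both sets of sites were formed from these base shares, so the values are a description. Without edited replicate 3 the mean was 0.659 points. The difference in spread was not tested.

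Several minor products of the pooled profile were larger at another H3 site in the same library. In edited replicate 1 C13T was 2.14% in the pooled profile and 36.4% at site 9, and C1G was 0.508% and 8.26% at site 1. C5A in edited replicate 3 was 0.337% against 19.3% at site 6, and C7T in edited replicate 2 was 3.49% against 53.6% at site 1 and 89.5% at site 7. Other products were larger in the pooled profile than at any of sites 1, 2, 6, 7 and 9. C7A of 8.41% and 19.5% in edited replicates 1 and 4 stood against 0.421 to 1.09% and 0.576 to 1.26% there. The same held for C5A of 7.69% in edited replicate 2, against 0.339 to 0.571%, C5G of 2.24% in edited replicate 3, against 0.0922 to 0.311%, and C1T of 1.86% in edited replicate 3, against 0.0362 to 0.141%. C7T of 13.6% in edited replicate 4 stood against 0.502 to 1.07%. The part of reads assigned from one H3 copy to another in these values was not tested.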

How the data were processed

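PCR products from 8 genomic DNA libraries were read at 26 sites. The authors deposited for each site, position and library a count of reads called there and, as 4 percent values, how those calls split among A, C, G and T. Bowtie 0.12.2 and the builds mm8 and mm10 are named, per the submitters' processing notes, without the role of each. Read filtering, the handling of insertions and deletions and the assignment of reads among identical H3 copies are likewise not given in the sources used here. Each percent times its count lay within 0.01 of a whole number, so reads per base were recovered. Library names were matched to labels by initials (W, wild type; CH, Carm1 and H3R17H) and number.

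Members, positions and lists were chosen with earlier results of these data known. Named were all products at positions 1, 5, 7 and 13, G4A, G19A, any substitution reaching 1% in a library, and departures of site 8 by at least 0.5 points; T15A, from the last, and values at other H3 sites beyond positions 5 and 7 were added after their values were seen, as was the depth comparison. Single values were compared by exact permutation over the 70 splits. limma 3.58.1 (R 4.3.3) was fitted to log2 odds with a pseudocount of 0.5 over all substitutions, after being tested on simulated data. The simulated libraries had the same spread for every substitution and in both groups. That test therefore does not cover substitutions as uneven among libraries as C7A or G4A. Other steps were run in Python 3.11.15 (biopython 1.88, scipy 1.17.1, numpy 2.4.6). No 2 libraries of a group held the same counts (smallest chi-square per degree of freedom 3.21, wild-type replicates 2 and 3). Alternatives changed the pooling, scale, pseudocount, filter, pairing and libraries.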

Additional observations from a re-analysis of the deposited data

Results flagged for a closer look

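A library stood far from the other 3 of its group in 9 of 32 checks, 7 of them edited. Chance flags about 1 in 20 groups, but these substitutions were picked with their values known, so nothing is read from the count. In edited replicate 1 these were C1A at 1.07%, C1G at 0.508% and C13T at 2.14%, with the other 3 edited libraries at most at 0.00355%, 0.00459% and 0.00888%. In edited replicate 2 it was C5A at 7.69%, with the others at 0.0197 to 0.470%. In edited replicate 3 they were C1T at 1.86% and C5G at 2.24%, with the others at most at 0.0117% and 0.0132%. C13A at 0.0106% in edited replicate 4, with the others at 0.00594 to 0.00637%, lay at the level of wild-type libraries. Wild-type replicate 1 differed from the other 3 wild-type libraries, with G4A at 0.0142% and G19A at 0.0213% against 19.7 to 21.5% and 19.7 to 21.4%.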

How the results depend on the processing

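C5T and all conversion of C5 kept their direction and the separation of the groups in several settings. These were reads summed over the members, without site 8, each member alone and the log2 odds scale. The same held with each library left out, where the differences ran from 43.2 to 49.9 and from 46.0 to 53.3 points. C5T counted among C and T reads only differed by 48.0 points. Same-numbered libraries did not deviate together over all substitutions (correlations of -0.302, -0.180, 0.145 and -0.131), so numbers were not taken as pairs. With the replicate block the differences of 46.6 and 49.3 points had an exact sign-flip p = 0.13, the smallest that 4 pairs can give, and limma called 6 substitutions over the whole table in place of 10. At the pooled profile the block left the count at 1. With the 4 sites entered separately limma called 14 of 1560 substitutions over the whole table. Of the 240 at these sites it called 5, C5T at each and C7G at 1 of them. The 4 sites may hold the same reads, so the C5T calls are not independent of each other. With each library left out the limma counts ran from 9 to 18 over the whole table, highest without edited replicate 4, and from 1 to 3 at the pooled profile. The comparison with sites 1, 6 and 7 turned to 3.70 points with site 1 alone (exact sign-flip p = 0.625) and ran from -3.46 to 0.659 points with each edited library left out; the causes were not tested. Single libraries carried the differences of several by-products: with 1 library left out the lowest was 0.000806 points for C1A, 0.00158 for C1G, 0.00370 for C1T, 0.00378 for C13T, 0.00491 for C5G and 0.272 for C5A. C7A ran from 2.80 to 9.30 points, C7T from 1.94 to 6.44 and G4A from -10.6 to -2.24, and G10A changed sign (-0.296 to 0.435).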
